A study of Mus musculus with 6 samples.

Results

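Transcripts of the cation-chloride cotransporters and of the WNK and SPAK/OSR1 kinases that regulate them were measured in hippocampal tissue of TG mice and their WT controls. The genes were chosen by name, and all 9 (Slc12a2, Slc12a4, Slc12a5, Slc12a7, Stk39, Oxsr1, Wnk1, Wnk2 and Wnk3) had a row among the 54532 genes of the deposited table. RNA-seq was available for 3 WT mice (WT1 to WT3) and 3 TG mice (TG1 to TG3). The TG mice are knock-in animals that carry the G82R and L85P changes together in exon 3 of Slc1a2, the gene of the astrocytic glutamate transporter GLT-1. They were made with CRISPR/Cas9 on a C57BL/6N background, and wild-type littermates served as controls. The change lies in the germline, so no promoter restricts it to a cell type. Age, sex and zygosity of the 6 sequenced animals are not given in the sources used here.

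Neurons and glia set their internal chloride with electroneutral carriers of the Slc12 family. NKCC1 (Slc12a2) brings sodium, potassium and chloride into the cell, whereas the potassium-chloride cotransporters KCC1 (Slc12a4), KCC2 (Slc12a5) and KCC4 (Slc12a7) move chloride outward. KCC2 is specific to neurons and keeps their chloride low, which makes GABA inhibitory in the adult brain. WNK kinases respond to low chloride and to osmotic stress and switch on the kinases SPAK (Stk39) and OSR1 (Oxsr1), which phosphorylate the cotransporters, activating NKCC1 and inhibiting the KCCs. The balance between NKCC1 and KCC2 in the hippocampus is widely studied in epilepsy.

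The values are FPKM (reads of a gene scaled to its length and to the depth of the library), from 16081281 to 18751057 reads on genes per library. Slc1a2 itself had an FPKM of 202, 199.5 and 177 across WT1 to WT3, against 222, 207 and 217 across TG1 to TG3, and FPKM do not hold the bases that would show the edited codons. The 8 markers of hippocampal neurons were present in every library, with a summed FPKM of 1144 to 1281. Some libraries stood apart. The 13 markers of the choroid plexus, the secretory epithelium of the brain ventricles, had a summed FPKM of 57.9 to 82.8 in the WT libraries and 66.5 in TG3, against 1220 in TG1 and 3858 in TG2. In TG1 and in TG2 all 13 markers lay above every WT library, in TG3 4 of 13 did, and no marker was at 0 in any library. In addition, the 2201 protein-coding genes with a summed exon length of at least 8000 bases and a mean FPKM of at least 1 had a median log2 level of -0.15 in WT3 and 0.09 in TG1 relative to the mean of the 6 libraries, and -0.0003 to 0.03 in the other libraries. In bulk tissue, fewer cells of a type and less RNA per cell cannot be told apart.

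The bases upstream of 2 of the genes are shown, because Slc12a4 had the largest difference between the groups and Slc12a5 was the most abundant of the set. They come from RefSeq on GRCm38.p6, are written 5′ to 3′ on the strand of the gene, and stop before the first annotated exon base. For Slc12a5, which has 2 annotated starts in RefSeq, the window before the downstream start is given (chr2:164967738-164967982, plus strand), the start of the KCC2b form. The Slc12a4 window is chr8:105966116-105966365 on the minus strand. Capitals mark the letters GGGCGG (GC box) or CACGTG (E-box), searched on both strands, with no overlap between the matches.
Slc12a4: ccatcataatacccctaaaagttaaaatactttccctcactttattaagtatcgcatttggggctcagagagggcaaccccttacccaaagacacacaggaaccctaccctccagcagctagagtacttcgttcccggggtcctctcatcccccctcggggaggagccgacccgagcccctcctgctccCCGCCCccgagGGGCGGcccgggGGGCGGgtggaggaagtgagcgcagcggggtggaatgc
Slc12a5: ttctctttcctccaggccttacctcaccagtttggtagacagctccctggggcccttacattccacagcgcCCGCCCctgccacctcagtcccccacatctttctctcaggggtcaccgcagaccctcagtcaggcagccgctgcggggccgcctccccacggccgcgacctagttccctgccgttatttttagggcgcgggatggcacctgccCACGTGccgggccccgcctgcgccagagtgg
The Slc12a4 window of 250 bases held 3 GC boxes and no E-box, and the Slc12a5 window of 245 bases held 1 GC box and 1 E-box. The window of 206 bases before the upstream start of Slc12a5 (chr2:164960596-164960801), not printed here, held neither. Of 32851 mouse promoter windows of 250 bases, 32.7% held a GC box and 6.02% an E-box on either strand. USF1, encoded by Usf1, is a transcription factor that binds E-boxes, and its transcript is described among the KCC2 regulators. A match is a stretch of letters, not a measured binding site.

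The 9 genes spanned more than 2 orders of magnitude in expression per length. Slc12a5 was the most abundant at a mean FPKM of 87.2 ± 6.87 over the 6 libraries (SD, n = 6), and its lowest library lay above the highest library of every other gene of the set. Wnk2 (17.8), Stk39 (15.6), Slc12a2 (12.8), Oxsr1 (10.04) and Wnk1 (8.99) followed as mean FPKM. The ranges of neighbours in this middle group overlapped. Even so, Stk39 exceeded Slc12a2 and Slc12a2 exceeded Oxsr1 in 6 of 6 libraries, whereas Wnk2 exceeded Stk39 in only 4 of 6. Slc12a4 (5.29) overlapped with Wnk1 in range but was the lower of the pair in each library. Wnk3 (3.64) and Slc12a7 (0.667) stood at the bottom, each with a range clear of its neighbours. The level of Slc12a2 per length depends on the annotation, because the deposited length is 6520 bases and the exons of this gene cover 10920 bases in GENCODE M21. For the other 8 genes both lengths were equal. Reads behind each value numbered 115 to 192 for Slc12a7, 329 to 585 for Slc12a4 and at least 620 per library for the other genes.

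Between TG and WT mice, none of the 9 genes passed the test, and the values of the groups overlapped in all 9. The test was limma on log2(FPKM + 0.1) over 20952 genes whose mean FPKM was 0.1 or more, with Benjamini-Hochberg adjustment. The smallest adjusted p was 0.786, for Slc12a4. Over all genes tested, 0.00955% had an adjusted p under 0.05, with 0.00477% higher and 0.00477% lower in the TG group. At an unadjusted p under 0.05, 0 of the 9 genes were called with limma, against 5.91% of all genes. With limma-voom on the reads recovered from the FPKM, 0 were called at an adjusted p under 0.05 and 1, Slc12a4, at an unadjusted p under 0.05 (limma-voom unadjusted p = 0.0404), where 5.98% of all genes had an unadjusted p under 0.05 and 0% an adjusted one. Groups lay apart in 12.1% of all genes tested, with TG above WT in 6.35% and TG below WT in 5.71%, and in 0 of the 9. The median log2 fold change of the 9 genes was 0.22, with 8 above 0, while over all genes the median was -0.002 and 49.6% were above 0. The 9 genes have at least 4279 exon bases each, and these values over all genes are not matched for length. TG2 was the highest library for 4 of the 9 genes, against 15.7% of all genes tested. In the plot of FPKM by library, the SD of the TG libraries was more than 3 times that of the WT libraries for Slc12a2, Slc12a4, Stk39 and Wnk3, and that of the WT libraries was the larger for Wnk1, Wnk2 and Oxsr1.

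**Figure D1:**
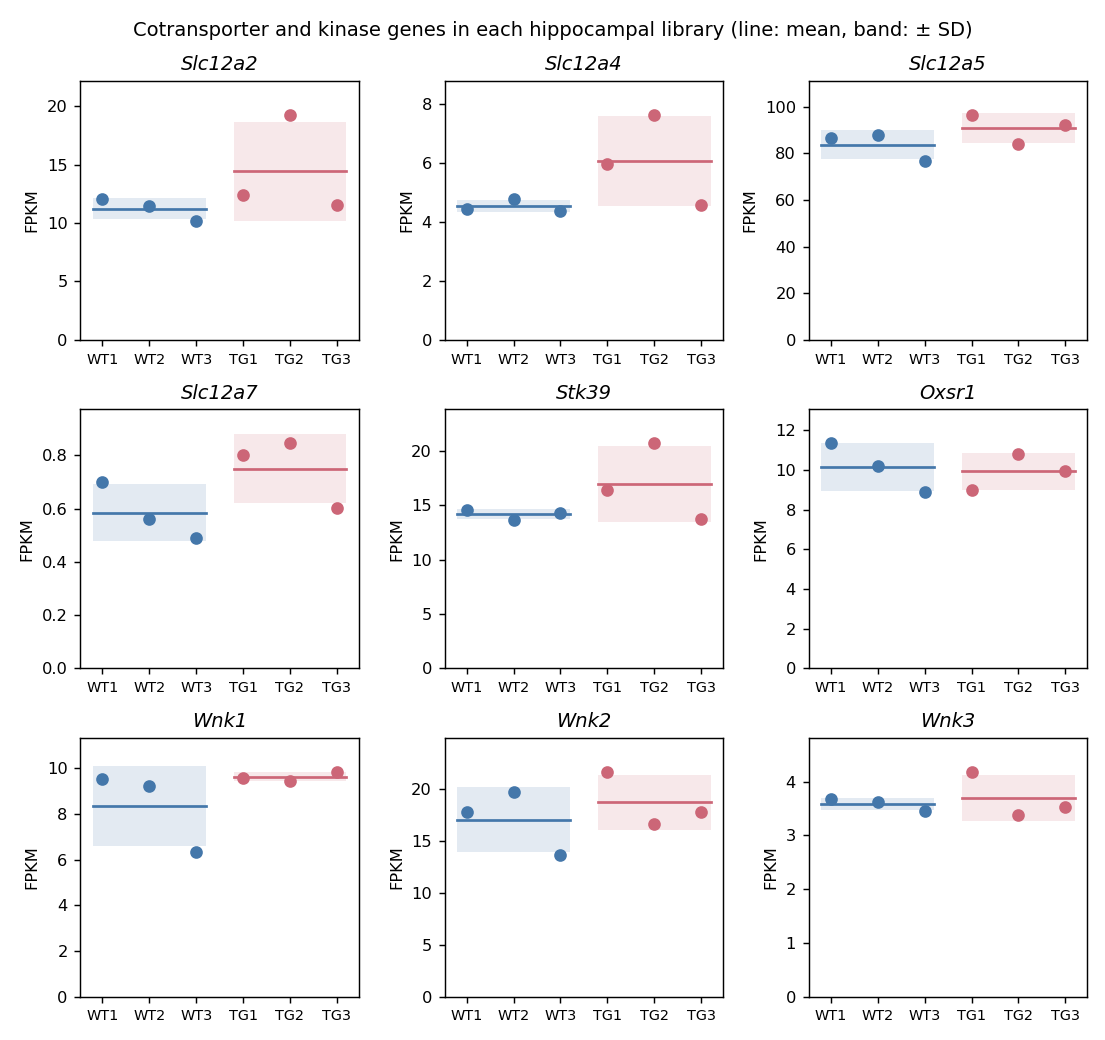
FPKM of the 9 genes (vertical axes, each from 0) in the 3 WT libraries (blue) and the 3 TG libraries (red); lines are group means and bands are ± 1 SD. TG2 is the highest library for Slc12a2, Slc12a4, Slc12a7 and Stk39, at 19.3, 7.63, 0.845 and 20.7, and WT3 is the lowest for Wnk1 at 6.34.

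NKCC1 and the KCC genes of low abundance were higher in TG1 and TG2 than in the other libraries. Slc12a2 (ENSMUSG00000024597, chromosome 18 from 57878678 to 57946821, plus strand, GRCm38), which encodes NKCC1, had an FPKM of 12.05, 11.5 and 10.2 across WT1 to WT3, against 12.4, 19.3 and 11.5 across TG1 to TG3. Only TG2 stood well clear of the WT libraries, and TG3 lay inside their range. The group means were 11.2 ± 0.934 and 14.4 ± 4.23 (SD, n = 3 per group), or 0.32 as log2 fold change (standard error 0.187, 95% interval -0.12 to 0.76, limma adjusted p = 0.789). The TG SD was larger than the difference between the means, and without TG2 the log2 fold change was 0.09.

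Slc12a4 (ENSMUSG00000017765, chromosome 8 from 105943590 to 105966097, minus strand) encodes KCC1, a widely expressed carrier of cell volume control. Its FPKM was 4.44, 4.76 and 4.38 across WT1 to WT3, against 5.95, 7.63 and 4.58 across TG1 to TG3. TG1 and TG2 lay above all WT libraries, whereas TG3 lay within the WT range. Means were 4.53 ± 0.205 and 6.05 ± 1.53 (SD, n = 3 per group), and the log2 fold change was 0.38 (standard error 0.174, 95% interval -0.025 to 0.79). Without TG2 it was 0.20. Of its exon bases, 8.44% overlap Gm16156, an antisense gene, and strand was not stated, so reads of the pair cannot be separated there. Slc12a7 (ENSMUSG00000017756, chromosome 13 from 73733094 to 73816754, plus strand), the gene of KCC4, was scarce, with an FPKM of 0.7002, 0.562 and 0.489 across WT1 to WT3, against 0.803, 0.845 and 0.603 across TG1 to TG3. Again TG1 and TG2 were the highest and TG3 fell inside the WT range (log2 fold change 0.31, 95% interval -0.21 to 0.84).

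In 4 of the 9 genes (Slc12a2, Slc12a4, Slc12a7 and Stk39) TG1 and TG2 lay above every WT library and above TG3, an order found in 7.23% of all genes tested. The choroid plexus markers had the same order, with a median log2 difference from the WT mean of 3.27 in TG1, 5.002 in TG2 and -0.01 in TG3. For Slc12a2 these differences were 0.15, 0.78 and 0.04, and for Slc12a4 they were 0.39, 0.74 and 0.02. With a score of the 13 choroid plexus markers as a covariate in limma, the log2 fold change was -0.066 (standard error 0.177) for Slc12a2, -0.015 (0.135) for Slc12a4, 0.04 (0.303) for Slc12a7 and -0.087 (0.111) for Stk39. With TG3 as the only TG library, these log2 fold changes were 0.04, 0.02, 0.05 and -0.046 in the same order of genes, on the assumption that TG3 varies as the WT libraries do. The 4 genes were named for an order of libraries that the marker score shares. A fall in both fits was thus built into the choice, and the source of the differences was not tested. The summed FPKM of the ependymal markers, genes of the ciliated lining of the ventricles, was also highest in TG2, at 18.2 against 8.64 to 14.6 in the other libraries. Foxj1, Rsph1 and Dynlrb2 carried this sum, whereas Ccdc153 and Tmem212 lay below every WT library in TG2. Microglial markers summed to 170 in TG2 against 124 to 163 elsewhere. Oligodendrocyte markers went another way, with sums of 478, 659 and 711 across TG1 to TG3, against 608 to 774 in the WT libraries. None of the 5 ependymal, 6 microglial and 8 oligodendrocyte markers was at 0 in a library, and the part of these cells in the Slc12a2 values was not tested.

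**Figure D2:**
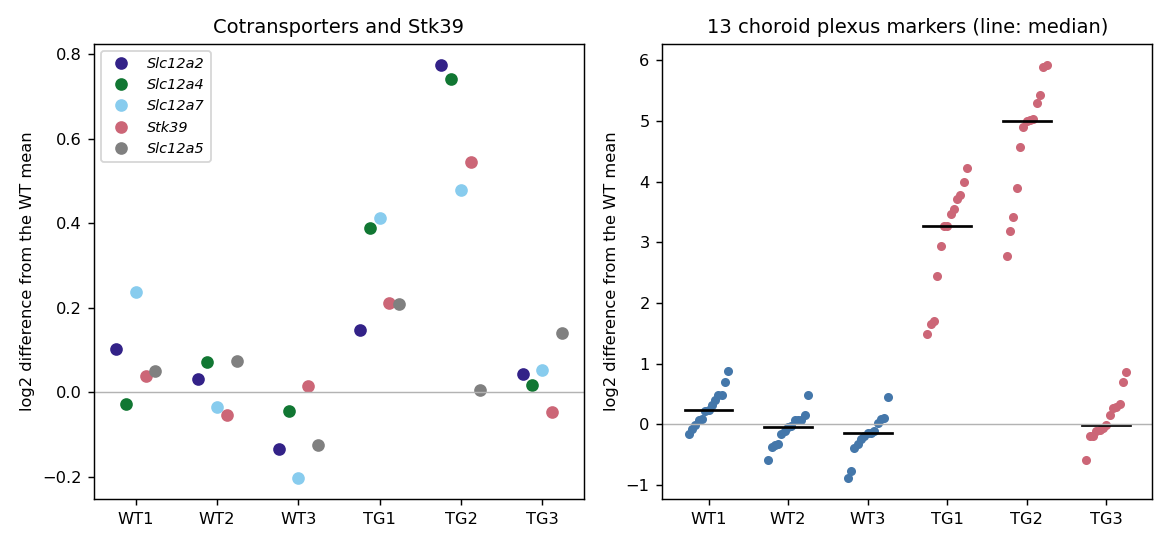
Log2 difference of each library from the WT mean of the gene, on log2(FPKM + 0.1), for Slc12a2, Slc12a4, Slc12a7, Stk39 and Slc12a5 (left) and for 13 choroid plexus markers (right; black lines are medians). The 4 genes other than Slc12a5 are highest in TG2, where the marker median is 5.002, and Slc12a5 is at 0.005 in TG2.

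KCC2, the chloride exporter of neurons, did not share this order. Slc12a5 (ENSMUSG00000017740, chromosome 2 from 164960802 to 164999731, plus strand) had an FPKM of 86.4, 87.9 and 76.5 across WT1 to WT3, against 96.5, 83.7 and 92.0 across TG1 to TG3. TG2, the library with most choroid plexus RNA, was the lowest of the TG libraries and lay inside the WT range. The means of 83.6 ± 6.18 and 90.7 ± 6.45 (SD, n = 3 per group) differed by a log2 fold change of 0.12 (standard error 0.0877, limma adjusted p = 0.789). Its 95% interval of -0.088 to 0.32 corresponds to a TG level of 0.941 to 1.25 times the WT level. Without WT3, the lowest library, the log2 fold change was 0.06.

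The NKCC1 to KCC2 ratio was compared within each library, because the 2 carriers move chloride in opposite directions. In bulk tissue the transcripts can come from different cells, so the ratio is not that of a single cell type. Its level also rests on the deposited Slc12a2 length of 6520 bases, where the exons cover 10920. Slc12a2 FPKM amounted to 13.9%, 13.0% and 13.4% of Slc12a5 FPKM across WT1 to WT3, and to 12.9%, 23.0% and 12.6% across TG1 to TG3. Thus TG1 and TG3 lay just below all WT libraries and TG2 far above them. The mean log2 ratio was -2.88 ± 0.0485 (WT) and -2.68 ± 0.491 (TG) (SD, n = 3 per group), a difference of 0.20 (two-sided exact permutation test over 20 labelings, p = 1, where 0.1 is the smallest p possible). Without TG2 the difference was -0.080, so its direction rested on this library.

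The kinases directly above the cotransporters differed from each other in pattern. Stk39 (ENSMUSG00000027030, chromosome 2 from 68210445 to 68472268, minus strand) encodes SPAK, and its FPKM was 14.6, 13.6 and 14.3 across WT1 to WT3, against 16.4, 20.7 and 13.7 across TG1 to TG3. The WT libraries were tightly grouped, TG1 and TG2 exceeded them, and TG3 lay among them. From 14.2 ± 0.475 in WT to 17.0 ± 3.52 in TG mice (SD, n = 3 per group), the log2 fold change was 0.24 (95% interval -0.094 to 0.57). It was 0.083 without TG2 and 0.38 without TG3. Oxsr1 (ENSMUSG00000036737, chromosome 9 from 119238432 to 119322427, minus strand) encodes OSR1, the close relative of SPAK, and had an FPKM of 11.3, 10.2 and 8.90 across WT1 to WT3, against 9.001, 10.8 and 9.95 across TG1 to TG3. All 3 TG values fell within the WT range. The log2 fold change of Oxsr1 was -0.03 with a 95% interval of -0.29 to 0.23, and it was 0.054 without WT1 and 0.04 without TG1, so no direction held.

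Wnk1, the broadly expressed WNK gene that sits at the top of the cascade, was nearly constant in 5 of the 6 libraries. Wnk1 (ENSMUSG00000045962, chromosome 6 from 119923969 to 120038672, minus strand) had an FPKM of 9.52, 9.20 and 6.34 across WT1 to WT3, against 9.57, 9.46 and 9.85 across TG1 to TG3. WT3 was far below the others, and the remaining libraries differed by little. The log2 fold change was 0.22 (standard error 0.152, limma adjusted p = 0.789) and became 0.04 without WT3. Wnk1 has the greatest summed exon length of the set, 22825 bases, and WT3 was the library in which genes of 8000 bases or more were low. After each library was corrected for a trend on gene length, an adjustment chosen after seeing the data, the log2 fold change of Wnk1 was 0.10 (standard error 0.0894).

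**Figure D3:**
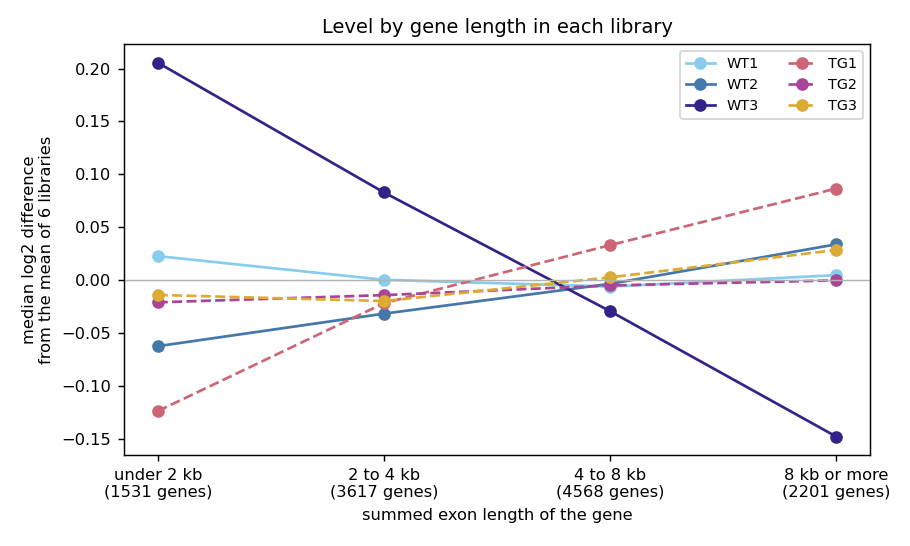
Median log2 difference of each library from the mean of the 6 libraries (vertical axis) for protein-coding genes whose mean FPKM was 1 or more, in 4 bins of summed exon length (horizontal axis). WT3 passes from 0.21 in the shortest genes to -0.15 in the longest, and TG1 from -0.12 to 0.09.

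Wnk2 and Wnk3 are the WNK genes most associated with neurons. Wnk2 (ENSMUSG00000037989, chromosome 13 from 49036303 to 49148014, minus strand) had an FPKM of 17.8, 19.7 and 13.6 across WT1 to WT3, against 21.6, 16.6 and 17.7 across TG1 to TG3. Here too WT3 was the lowest and TG1 the highest, while the other libraries intermixed. The log2 fold change of 0.14 (95% interval -0.22 to 0.50) was -0.012 without WT3 and 0.03 without TG1. Wnk3 (ENSMUSG00000041245, chromosome X from 151198078 to 151320152, plus strand) had an FPKM of 3.67, 3.62 and 3.45 across WT1 to WT3, against 4.18, 3.37 and 3.52 across TG1 to TG3. TG1 was the highest and TG2 the lowest, so the TG libraries enclosed the WT range (log2 fold change 0.04, 95% interval -0.22 to 0.29). The antisense gene A230072E10Rik overlaps 4.94% of its exon bases, and 2.03% of its 50-base stretches occur in another gene. WT3 was the lowest library for 7 of the 9 genes, against 25.4% of all genes tested. That share is not matched for length. The 9 genes have at least 4279 exon bases each. The median log2 level of WT3 was -0.15 in genes of 8000 bases or more and 0.21 in genes under 2000 bases. Between 4000 and 8000 bases, where Slc12a2, Slc12a4, Slc12a5 and Oxsr1 are among the genes, it was only -0.03. Whether length accounts for the place of WT3 was not tested.

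**Figure D4:**
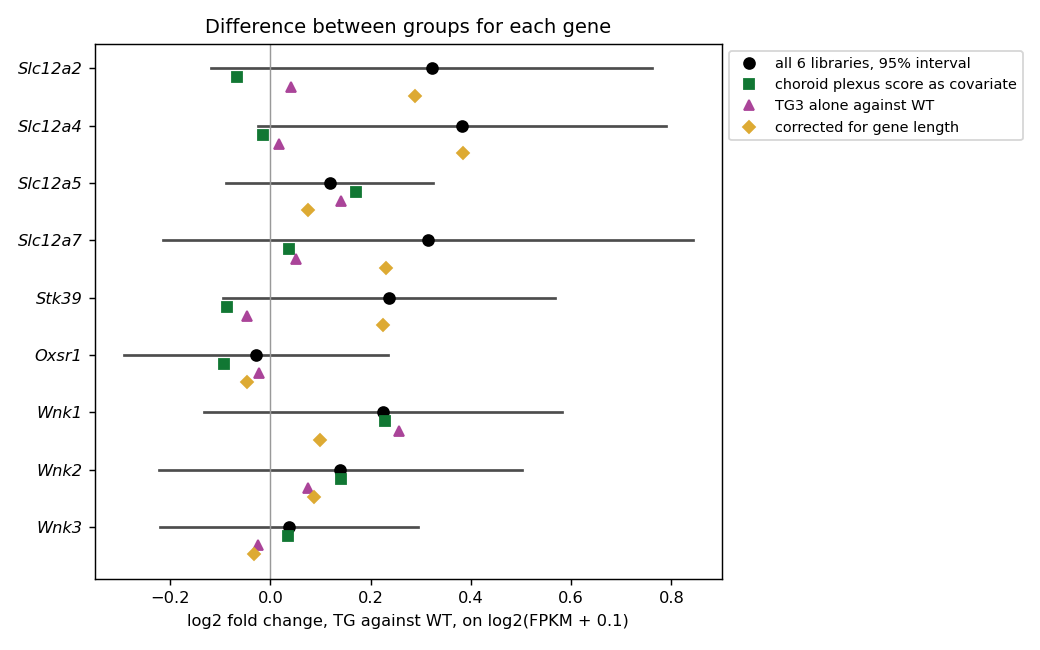
Log2 fold change of TG against WT (horizontal axis) for each gene from all 6 libraries with its 95% interval (black), with a choroid plexus score as covariate (green squares), with TG3 as the only TG library (purple triangles) and after correction for gene length (yellow diamonds). Every 95% interval includes 0, and for Slc12a2, Slc12a4, Slc12a7 and Stk39 the green and purple values lie between -0.087 and 0.05. These genes were named for being higher in TG1 and TG2 than in TG3, so lower values in both fits follow from that choice.

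The remaining genes of chloride transport and of the WNK pathway were described on 4 lists of 45 genes, of which 42 were tested. No gene of these lists had an adjusted p under 0.05 with limma or with limma-voom. At an unadjusted p under 0.05, 3 were higher and 0 were lower in TG mice with limma, where 3.13% of all genes tested were higher and 2.78% lower, and with limma-voom 5 were higher and 0 were lower, against 5.98% of all genes in either direction. The groups lay apart with TG above WT for 3 of the 42 genes (Sgk1, Lrrc8c and Ntrk2), against 6.35% of all genes tested. They lay apart with TG below WT for 3 of the 42 (Ppp1ca, Ppp1cc and Neto2), against 5.71% of all genes tested. Ntrk2, Ppp1cc and Neto2 are named after their values were seen. Of the 5 other Slc12 genes, 3 were tested, with a median log2 fold change of -0.05. The smallest p of these genes was that of Slc12a8 (log2 fold change -0.27, limma unadjusted p = 0.481). The renal carriers Slc12a1 and Slc12a3 were at most 0.0292 FPKM in any library and were not tested.

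Among the 12 WNK pathway regulators, 5 had a log2 fold change above 0 and 7 below, with a median of -0.03. The kinase gene Sgk1, an upstream activator of the pathway and a glucocorticoid target, had the smallest p, with an FPKM of 20.6, 28.3 and 29.1 across WT1 to WT3, against 30.1, 34.2 and 32.8 across TG1 to TG3. The TG libraries lay above the WT libraries, by a narrow margin over WT3, and the log2 fold change was 0.33 (standard error 0.137, limma adjusted p = 0.786). Without WT1, the lowest library, the log2 fold change was 0.17. Ppp1ca, a catalytic subunit of protein phosphatase 1 and the list's highest in FPKM, averaged 117 ± 7.45 (WT) and 108 ± 4.21 (TG) (SD, n = 3 per group). All 3 TG values of Ppp1ca, 103 to 111, lay below the WT values of 112 to 125, with WT3 the highest library and TG1 the lowest. The log2 fold change of Ppp1ca was -0.11 (limma unadjusted p = 0.183, adjusted p = 0.789). Cab39l, whose product MO25β binds and activates SPAK and OSR1, is named after its values were seen. It had an FPKM of 3.87, 4.03 and 4.82 across WT1 to WT3, against 6.49, 10.1 and 4.27 across TG1 to TG3, again highest in TG1 and TG2 and inside the WT range in TG3. Wnk4, the WNK gene of the kidney, had an FPKM of 1.08 to 1.97 in the WT libraries and 1.35 to 1.59 in the TG libraries.

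The 12 regulators and partners of KCC2 had a median log2 fold change of 0.10, with 8 above 0 and 4 below. Pacsin1, an endocytic adaptor that binds KCC2, had the smallest p at an FPKM of 52.7 ± 5.72 (WT) and 60.9 ± 4.71 (TG) (SD, n = 3 per group; log2 fold change 0.21, limma unadjusted p = 0.0750). Ckb, brain creatine kinase, was the most abundant at 371 ± 55.8 and 364 ± 14.9 (SD, n = 3 per group). Usf1 had an FPKM of 20.7, 19.7 and 23.4 across WT1 to WT3, against 18.7, 19.4 and 20.4 across TG1 to TG3, with overlapping groups (log2 fold change -0.12, limma adjusted p = 0.789).

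Of 16 other chloride channels and exchangers, 15 were tested, 11 had a log2 fold change above 0 and the median was 0.08. Lrrc8c, a subunit of the volume-regulated anion channel, had an FPKM of 4.50, 4.30 and 4.17 across WT1 to WT3, against 5.18, 4.80 and 5.31 across TG1 to TG3. Its TG libraries lay above its WT libraries without overlap (log2 fold change 0.23, standard error 0.0858, limma unadjusted p = 0.0286, adjusted p = 0.786). Slc4a2, the anion exchanger AE2, had an FPKM of 2.96, 3.20 and 2.57 across WT1 to WT3, against 5.46, 9.76 and 2.99 across TG1 to TG3. TG1 and TG2 were high and TG3 lay within the WT range, the order of the choroid plexus markers (log2 fold change 0.89, limma adjusted p = 0.786). Slc4a10, a sodium-dependent bicarbonate transporter, was the most abundant at 45.2 ± 0.782 (WT) and 49.3 ± 3.34 (TG) (SD, n = 3 per group). Its FPKM was 45.4, 45.9 and 44.3 across WT1 to WT3, against 51.0, 51.4 and 45.4 across TG1 to TG3. As for Slc4a2, TG1 and TG2 lay above every WT library and TG3 lay within the WT range. On this list, TG1 and TG2 lay above every WT library and TG3 in 2 of the 15 genes tested, against 7.23% of all genes tested. Lrrc8e was at 0 in 5 libraries and was not tested. With the choroid plexus score as a covariate, the log2 fold changes of Lrrc8c and Sgk1 were 0.30 (standard error 0.131) and 0.35 (0.208), and with TG3 as the only TG library they were 0.29 (0.102) and 0.35 (0.253), each no smaller than from all 6 libraries but with a larger standard error. That of Slc4a2 was -0.04 and 0.05 in these fits. None of the 3 had an unadjusted p under 0.05 in either fit.

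**Figure D5:**
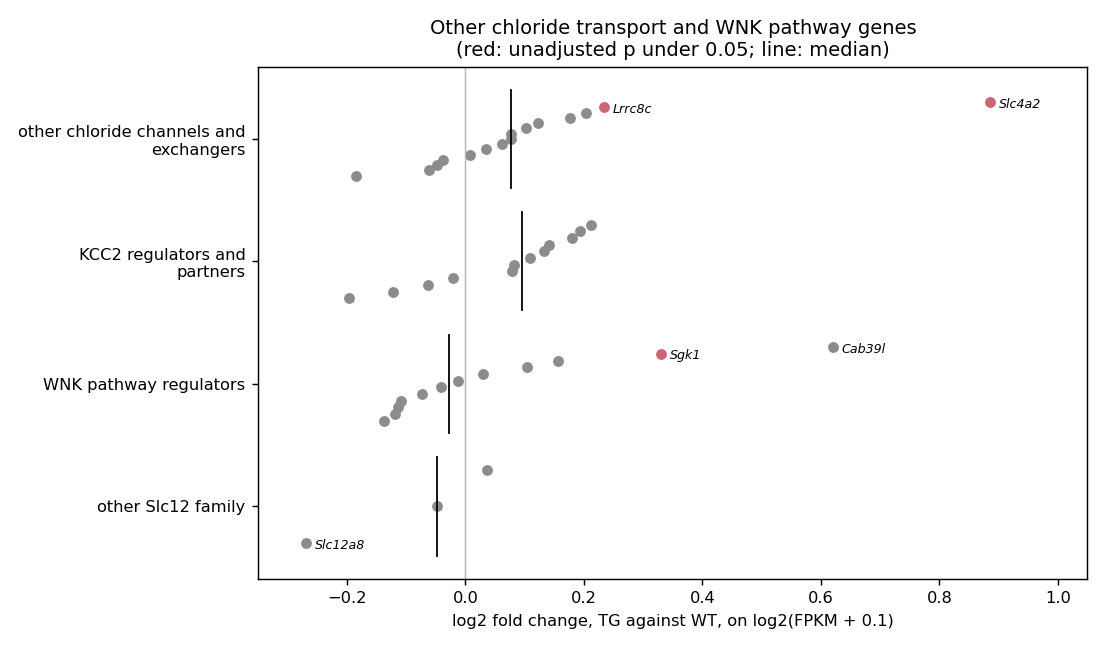
Log2 fold change of TG against WT (horizontal axis) for the 42 genes tested on 4 lists (rows), with red points for an unadjusted limma p under 0.05 and black lines for list medians. Lrrc8c at 0.23, Sgk1 at 0.33 and Slc4a2 at 0.89 are the 3 red points.

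The genes whose levels were most like those of 3 members were listed as a description, over 6 libraries and 11917 protein-coding genes whose mean FPKM was 1 or more. For Slc12a2 they were Itgb8, an integrin subunit (Pearson r = 0.994), and Amot (0.988). Both were highest in TG2, at an FPKM of 7.48 and 3.71. For Slc12a5 they were Dennd5b (Pearson r = 0.997), Fmn2, a formin (0.996), and Epb41l3 (0.996), each lowest in WT3 and highest in TG1. For Wnk1 they were the acetyltransferase gene Kat6a (Pearson r = 0.997), Thbd (0.996) and Klf12 (0.995). These had an FPKM of 4.78, 2.87 and 2.26 in WT3 and were higher in every other library. With 6 points and this many genes compared, an r near 1 is weak evidence of a link between genes. The part of library composition and of the length trend in these values was not tested.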

How the data were processed

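Hippocampal RNA of 3 WT and 3 TG mice was sequenced, with each library used as 1 replicate. The authors counted reads per gene with HTSeq and deposited FPKM computed from gene length and read count. Sources differ on the kits (Trizol with NEBNext in the methods, RNeasy with SMARTer in the labels). The processing notes name GRCm38 and mm10. The aligner and strand setting are not given in the sources used here.

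Reads per gene were recovered from the steps of FPKM multiplied by length, and 100% of values came out whole (tolerance 0.05 reads). At this depth 3 reads on 1 kb are an FPKM of 0.160 to 0.190, and such limits cover counting error only. The fit was limma 3.58.1 in R 4.3.3 (lmFit, eBayes with trend) on log2(FPKM + 0.1) over genes whose mean FPKM was 0.1 or more, with Benjamini-Hochberg adjustment at 0.05, and was tested on simulated data. A fold change on this scale understates changes of low genes. Start and end of all 9 genes matched GENCODE M21. Python 3.11.15 was used otherwise.

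Some genes that the naming rule picks are not reported here. The members, gene lists and tests were chosen with earlier results of these data known. All members are named, and for each list the gene with the smallest p, the most abundant gene and genes with an unadjusted p under 0.05. Alternatives covered pseudocount, filter, scaling, variance trend, voom, biotype, replicate block, a choroid plexus covariate and left-out libraries, and a gene length correction was added after seeing the data.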

Additional observations from a re-analysis of the deposited data

How the results depend on the processing

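Over 19 alternatives, no member reached an adjusted p under 0.05 in limma, and the smallest adjusted p was 0.636. The log2 fold changes of Slc12a5, Slc12a7 and Wnk1 stayed above 0 in each alternative that could be run. That of Slc12a7 was not computed at a mean FPKM of at least 1, where it is not tested. With the choroid plexus score as a covariate, Slc12a2, Slc12a4 and Stk39 went to -0.066, -0.015 and -0.087. With TG3 as the only TG library, Stk39 was -0.046, Wnk3 -0.025 and the log2 NKCC1 to KCC2 ratio -0.098. After the gene length correction, Wnk3 was -0.033. The cause of these reversals was not tested.

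When 1 library was left out at a time, the log2 fold changes lay between -0.12 and 0.054 for Oxsr1, -0.012 and 0.25 for Wnk2, and -0.055 and 0.10 for Wnk3. They stayed above 0 for the other 6 genes, between 0.094 and 0.46 for Slc12a2, 0.20 and 0.56 for Slc12a4, 0.083 and 0.38 for Stk39, 0.21 and 0.45 for Slc12a7, 0.06 and 0.17 for Slc12a5, and 0.04 and 0.33 for Wnk1. The lowest values of Slc12a2, Slc12a4 and Stk39 came without TG2 and the highest without TG3, where Slc12a4 and Stk39 had an unadjusted p under 0.05 in limma. The log2 ratio lay between -0.080 and 0.35. The number of members at an unadjusted p under 0.05 was 0 to 2 in these fits, and 1 with limma-voom, with protein-coding genes only and with the replicate block. For the 4 pathway lists it was 0 to 3, and it was 1 without the variance trend, 5 with limma-voom and 0 with the covariate. The log2 fold changes of Lrrc8c and Sgk1 were no smaller with the covariate or with TG3 alone than in the main fit. That of Sgk1 was 0.17 without WT1.

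The labels do not state whether WT and TG libraries of the same number form pairs. Same-numbered WT and TG libraries had correlations of their deviations of 0.0125, 0.0434 and 0.00314. Other pairs ranged from -0.027 to 0.016, and TG1 correlated best with WT3 (0.0159). With so few libraries per group these values cannot decide whether the libraries are paired. With the replicate block, 0 members had an adjusted p under 0.05 in limma and 1 had an unadjusted p under 0.05, Slc12a4 (limma unadjusted p = 0.0363). Slc12a7 rests on the fewest reads of the set, 115 to 192 per library.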
